A study of Tachysurus vachellii with 12 samples.

Results

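The 22 genes described here stood apart in both liver pools that carry the letter c, one from hypoxic fish and one from control fish, and were found among 15051 named genes of the 34744 assembled in the series. A named gene was kept as higher when both c libraries reached at least 2 times the highest of the other 4 libraries with a mean of at least 5 counts per 1000000 (CPM) in the 2 c libraries. It was kept as lower when the lowest of the other 4 libraries reached at least 2 times both c libraries, with a mean of at least 5 CPM in the 4. The higher set held 1 gene, PSBR, and the lower set held 21. The members were chosen by their counts in the 6 mRNA libraries, so the gap between the c libraries and the others is a description and was given no test. In the higher direction the rule kept 0.015% of the 6685 named genes with the required level, and in the lower direction 0.304% of 6913.

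Livers came from juveniles of a bagrid catfish, Tachysurus vachellii, also known as Pelteobagrus vachelli, the name in the title. The 3 hypoxia pools, labelled P4 a, b and c, were taken after 4 h at 0.7 mg/L oxygen. The 3 control pools, P0 a, b and c, were taken from the same 3 aquaria at 6.8 mg/L before the oxygen was lowered. Each pool joined 5 livers, so a library is a mean over fish, and no label says what the letters a, b and c stand for. Total counts ran from 32652402 to 35852327 per mRNA library, and 3 counts correspond to 0.0837 to 0.0919 CPM, a floor that covers counting error only. Of 32 listed hepatocyte markers 21 had a component, and their summed level was 91297, 100913 and 105928 CPM in hypoxia pools a, b and c and 96825, 101372 and 112795 CPM in control pools a, b and c. On the second principal component of all tested genes hypoxia c and control c lay at -60.96 and -62.28, and the other 4 libraries lay between 14.28 and 46.25.

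Liver is made mostly of hepatocytes, which secrete plasma proteins and lipoproteins, oxidise fuels and clear foreign compounds. Stellate cells and fibroblasts around vessels and bile ducts make the collagens and proteoglycans of the matrix. A pooled liver library also carries RNA of any other tissue or organism that was dissected or prepared with it. In bulk tissue, fewer cells of a type and less RNA per cell cannot be told apart. The table holds assembled components without a genome, so 1 gene may be split over several components, and reads shared by near-identical copies make the level of each uncertain.

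**Figure D1:**
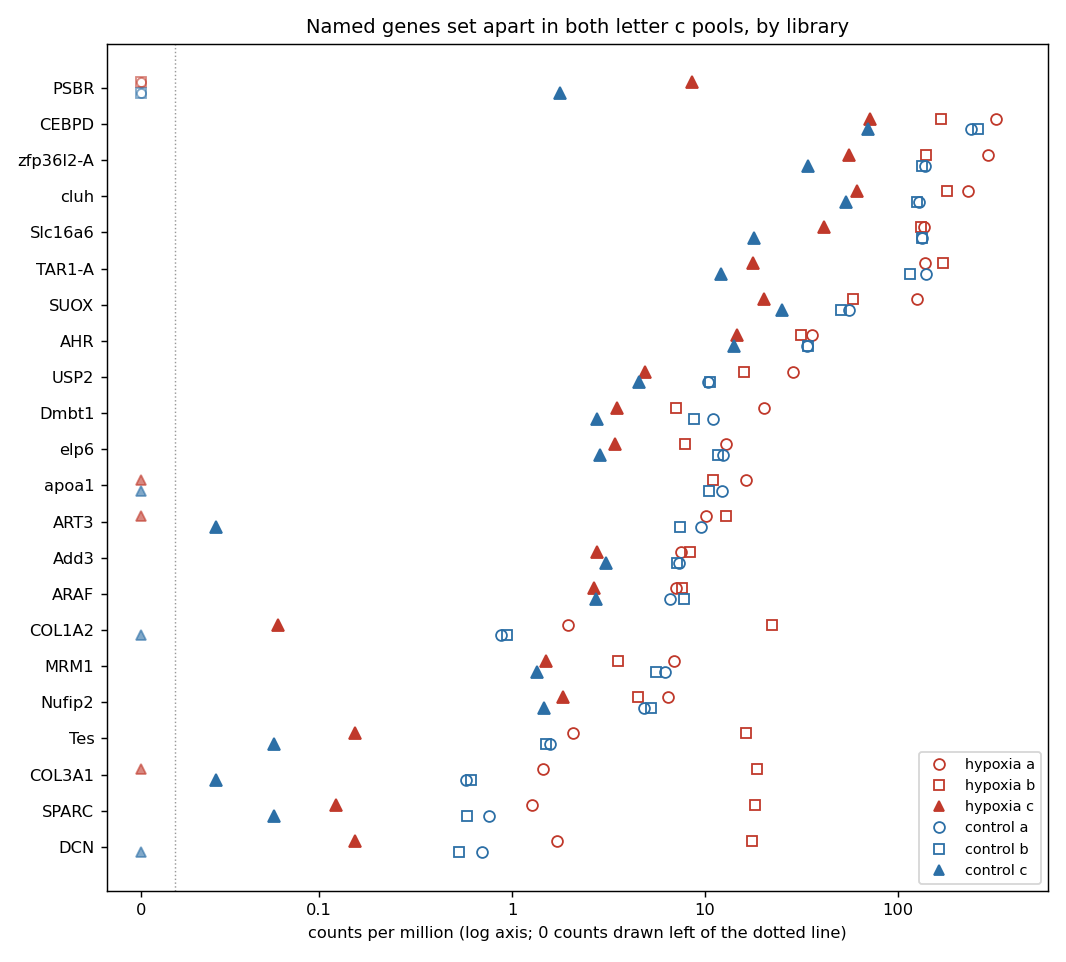
CPM (log axis) of the 22 genes in the 6 libraries, with hypoxia in red above control in blue and filled triangles for the c pools. In the 21 lower genes both triangles lie left of every open symbol, whereas PSBR, at 8.54 CPM in hypoxia c and 1.78 CPM in control c, has no count in the other 4 libraries.

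The only gene in the higher set was PSBR (component comp10059_c0, 574 bases), annotated as the photosystem II 10kDa protein, a subunit of the plant photosynthetic complex. It had 8.54 CPM in hypoxia c and 1.78 CPM in control c, against 0 counts in hypoxia a and b and in control a and b. These levels rest on 279 counts in hypoxia c and 61 in control c. Both c libraries therefore held reads of the component, the hypoxia c library more than the control c one, and the other 4 held none. PSBR met the 5 CPM level of the rule through hypoxia c, with a mean of 5.16 CPM in the 2 c libraries. It was lost when that library was left out. Its higher level in hypoxia c than in control c thus reuses the library that admitted it and is given as a description. The component missed the low-count filter of the hypoxia test and has no p.

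PSBR was not alone in its annotation. A search of the annotations for photosynthesis proteins, made after the values were seen, found 12 components, of which 10 carried a name. They included CAB-151, LHCA4 and lhca3, which bind chlorophyll in the light-harvesting antennae, PSBO and PSBQ1, which belong to the oxygen-evolving part of photosystem II, PSAK of photosystem I, and SSU5A and SSU26, small subunits of the carbon-fixing enzyme Rubisco. Together the 12 had 1154 counts in hypoxia c and 304 in control c, against 0 in hypoxia a, 0 in hypoxia b, 0 in control a and 1 in control b. The sum was 35.3 CPM in hypoxia c and 8.88 CPM in control c. Each of the 12 was higher in hypoxia c than in control c, by a ratio of 2.71 to 5.24.

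**Figure D2:**
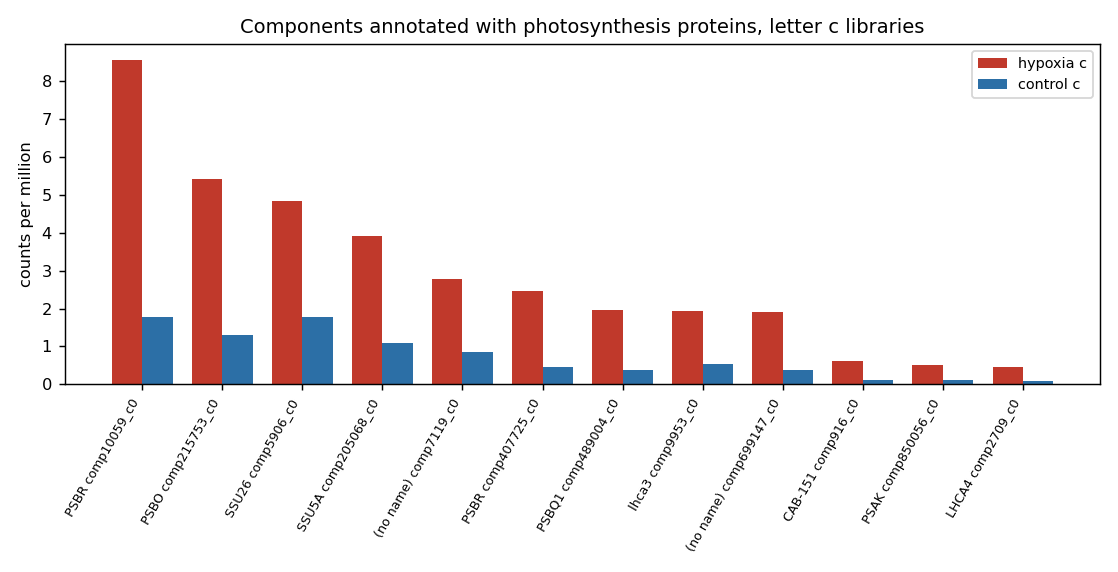
CPM of the 12 components annotated as photosynthesis proteins, in hypoxia c and control c. Every component is higher in hypoxia c, and the summed level is 35.3 CPM there and 8.88 CPM in control c.

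Among transcription factors of the lower set, CEBPD (comp20397_c0), a C/EBP factor known for its part in the acute phase response, had 319.6, 168 and 71.2 CPM in hypoxia pools a, b and c and 238, 259 and 69.7 CPM in control pools a, b and c. The 2 c libraries were nearly level with each other, and the mean of the other 4 was 3.49 times theirs. AHR (comp14903_c0), the aryl hydrocarbon receptor, which senses dioxin-like compounds, had 35.8, 31.4 and 14.7 CPM in hypoxia pools a, b and c and 33.9, 34.2 and 14.2 CPM in control pools a, b and c. Its other 4 libraries spanned a ratio of only 1.14, and the c libraries lay below them by a mean fold of 2.34.

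Several lower genes act on RNA. The zfp36l2-A component (comp19352_c2) encodes a zinc finger protein that binds AU-rich elements and promotes mRNA decay. It had 292, 139 and 55.5 CPM in hypoxia pools a, b and c and 137, 133 and 34.1 CPM in control pools a, b and c, so the hypoxia a library stood above the rest and both c libraries stood below. The gene named cluh (comp19105_c0), whose product binds mRNAs of mitochondrial proteins, had 229, 179.5 and 61.5 CPM in hypoxia pools a, b and c and 128, 125 and 54.0 CPM in control pools a, b and c. Outside the c pools both hypoxia libraries of cluh were higher than both control libraries.

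The remaining RNA genes were low. The gene elp6 (comp14277_c0), a subunit of the Elongator complex that modifies transfer RNAs, had 12.8, 7.90 and 3.43 CPM in hypoxia pools a, b and c and 12.4, 11.7 and 2.86 CPM in control pools a, b and c. MRM1 (comp15912_c0), a methyltransferase of mitochondrial ribosomal RNA, had 6.90, 3.54 and 1.501 CPM in hypoxia pools a, b and c and 6.24, 5.54 and 1.34 CPM in control pools a, b and c. Nufip2 (comp14220_c0), an RNA-binding protein, had 6.42, 4.49 and 1.84 CPM in hypoxia pools a, b and c and 4.81, 5.26 and 1.46 CPM in control pools a, b and c. In all 3 genes hypoxia a was the highest library and control c the lowest.

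Enzymes and a transporter formed another group. SUOX (comp17816_c0), sulfite oxidase, which turns sulfite into sulfate, had 125, 58.6 and 20.3 CPM in hypoxia pools a, b and c and 55.4, 50.5 and 25.0 CPM in control pools a, b and c. USP2 (comp10982_c0), an enzyme that removes ubiquitin from proteins, had 28.5, 15.9 and 4.87 CPM in hypoxia pools a, b and c and 10.4, 10.6 and 4.53 CPM in control pools a, b and c. Both genes were highest in hypoxia a, at 2.26 times the control a level for SUOX and 2.75 times for USP2, while the ratio of hypoxia c to control c was 0.809 for SUOX and 1.08 for USP2.

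Slc16a6 (comp15984_c0) encodes a monocarboxylate transporter that exports ketone bodies from zebrafish liver. It had 135, 132 and 41.4 CPM in hypoxia pools a, b and c and 132, 133 and 17.9 CPM in control pools a, b and c. The 4 libraries of letters a and b differed by a ratio of at most 1.03, and the c libraries differed from each other by more, hypoxia c being 2.32 times control c. The kinase ARAF (comp10811_c1), a member of the Raf family of the growth factor pathway, had 7.09, 7.59 and 2.66 CPM in hypoxia pools a, b and c and 6.60, 7.74 and 2.72 CPM in control pools a, b and c. Within each letter ARAF was nearly equal between hypoxia and control, with ratios of 1.07, 0.980 and 0.981.

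A pair of components were nearly missing from the c libraries. The apoa1 component (comp6727_c0), annotated as apolipoprotein A-I, the main protein of high-density lipoprotein, had 16.3, 11.0 and 0 CPM in hypoxia pools a, b and c and 12.3, 10.5 and 0 CPM in control pools a, b and c. Against a floor of 3 counts per library, the c libraries were at least 139.6-fold lower than the mean of the other 4. ART3 (comp5846_c0, 345 bases), named for a member of the ADP-ribosyltransferase family, had 10.2, 12.8 and 0 CPM in hypoxia pools a, b and c and 9.49, 7.39 and 0.0292 CPM in control pools a, b and c, where the last value is 1 count. Both components were present in all 4 libraries of letters a and b at similar levels, with a ratio of highest to lowest of 1.55 for apoa1 and 1.73 for ART3.

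Genes of the cell surface and the cytoskeleton were few. Add3 (comp10950_c0), an adducin that links actin to spectrin, had 7.53, 8.31 and 2.77 CPM in hypoxia pools a, b and c and 7.30, 7.15 and 3.07 CPM in control pools a, b and c. Dmbt1 (comp17432_c0), whose name is that of a scavenger receptor glycoprotein of mucosal surfaces although its annotation reads Notch, had 20.1, 7.11 and 3.49 CPM in hypoxia pools a, b and c and 10.9, 8.74 and 2.75 CPM in control pools a, b and c. The libraries of letters a and b lay close together for Add3, within a ratio of 1.16, and far apart for Dmbt1, at 2.83.

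In the member components of matrix genes a single library led. COL1A2 (comp9385_c0), a chain of type I collagen, had 1.96, 22.3 and 0.0613 CPM in hypoxia pools a, b and c and 0.882, 0.938 and 0 CPM in control pools a, b and c. COL3A1 (comp17368_c1), the chain of type III collagen, had 1.45, 18.6 and 0 CPM in hypoxia pools a, b and c and 0.578, 0.616 and 0.0292 CPM in control pools a, b and c. The hypoxia b library carried most of the reads of both member components, and the c libraries had at most 2 counts of either. COL1A1 (comp19702_c0), another chain of type I collagen and not a member, was far more abundant. It had 454, 587 and 795 CPM in hypoxia pools a, b and c. In control pools a, b and c it had 564, 708 and 423 CPM, so hypoxia c was its highest library.

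Hypoxia b also led by a wide margin in 3 further components, whose c libraries had at most 5 counts. SPARC (comp15710_c2), a collagen-binding glycoprotein, had 1.27, 18.1 and 0.123 CPM in hypoxia pools a, b and c and 0.760, 0.586 and 0.0584 CPM in control pools a, b and c. DCN (comp4362_c0), decorin, a proteoglycan that coats collagen fibrils, had 1.72, 17.4 and 0.153 CPM in hypoxia pools a, b and c and 0.700, 0.532 and 0 CPM in control pools a, b and c. Tes (comp21607_c0, 225 bases), testin, a protein of focal adhesions, had 2.08, 16.3 and 0.153 CPM in hypoxia pools a, b and c and 1.57, 1.495 and 0.0584 CPM in control pools a, b and c. In COL1A2, COL3A1, SPARC, DCN and Tes hypoxia b exceeded the lowest of the other letter a and b libraries by a ratio of 10.9 for Tes to 32.8 for DCN. Without hypoxia b none of these 5 reached the required mean of 5 CPM. By CPM, hypoxia b was also the highest library of ART3, TAR1-A and Add3, with smaller margins.

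The last lower component, TAR1-A (comp16266_c0), carries the name of a yeast gene that lies antisense to ribosomal RNA. By counts it had 138, 170 and 17.6 CPM in hypoxia pools a, b and c and 139, 115 and 12.1 CPM in control pools a, b and c, a mean fold of 9.45 between the other 4 libraries and the c libraries. In the authors' reads per kilobase and per 1000000 reads (RPKM) it had 39.7, 48.6 and 49.5 in hypoxia pools a, b and c and 39.6, 32.8 and 38.5 in control pools a, b and c. By RPKM the c libraries were thus not lower, hypoxia c being the highest of all. The other TAR1 component, comp17076_c1, held nearly all CPM of the name. It had 6483, 8097 and 5595 CPM in hypoxia pools a, b and c and 6333, 6098 and 4494 CPM in control pools a, b and c. It too was lowest in the c libraries, with a fold of 1.09 by the measure of the rule. The member held at most 2.14% of the name's CPM in any library.

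The 2 units differ by the transcript length they imply. Counts and RPKM together imply 3477, 3489 and 356 bases in hypoxia pools a, b and c and 3499, 3499 and 313 bases in control pools a, b and c for TAR1-A. The implied length therefore differed 11.2-fold between libraries. In the other 21 genes it differed by at most 1.03-fold among the libraries with enough signal to imply a length. For apoa1, ART3, COL1A2, COL3A1, SPARC and DCN no c library gave a length, and for PSBR only the c libraries did. In these genes the c libraries could not be compared with the others. With the fold taken on RPKM, TAR1-A left the lower set and no other member was lost.

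**Figure D3:**
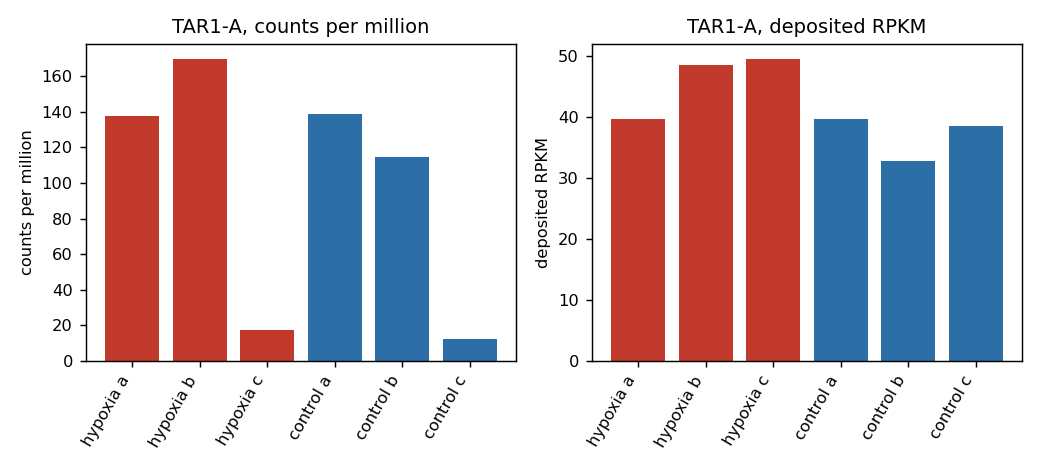
TAR1-A in each library in CPM and in the authors' RPKM. The c libraries are the lowest by counts, at 17.6 CPM in hypoxia c and 12.1 CPM in control c, and lie at 49.5 and 38.5 RPKM, within or above the range of the others.

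Most members were not the only component of their name. Of the 22 names, 15 had at least 1 other component, 31 in all, of which 9 had a mean of at least 5 CPM. The other decorin component (comp11768_c0) had 48.8, 61.3 and 78.6 RPKM in hypoxia pools a, b and c and 57.6, 58.1 and 96.3 RPKM in control pools a, b and c. It was the more abundant per length in every library and was highest in the c libraries, whereas the member had at most 16.0 RPKM. Of the other Sparc components, comp15914_c0 was the most abundant. It had 52.7, 58.2 and 87.3 RPKM in hypoxia pools a, b and c. In control pools a, b and c it had 62.8, 66.9 and 53.2 RPKM, so hypoxia c was the highest library. The SPARC components comp15710_c0 and comp15710_c1 followed the member, at 26.6 and 9.44 RPKM in hypoxia b and at most 0.14 RPKM in the c libraries. The other TES component (comp15563_c0) had 21.9, 18.8 and 9.94 CPM in hypoxia pools a, b and c. In control pools a, b and c it had 23.4, 25.9 and 18.3 CPM. Its c libraries were the lowest, but with a fold of only 1.03 by the measure of the rule. The Tes member held 46.4% of the name's CPM in hypoxia b and at most 8.66% in any other library.

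Another COL1A2 component, comp9385_c1, followed the member, at 2.26, 32.8 and 0 RPKM in hypoxia pools a, b and c and 1.56, 1.73 and 0 RPKM in control pools a, b and c. COL3A1 comp9727_c0 followed its member too, at 10.3 RPKM in hypoxia b, 0 in hypoxia c and 0.04 in control c. COL3A1 comp581050_c0 did not, at 1.37 RPKM in hypoxia b and 1.30 RPKM in hypoxia c. For apoa1, the component comp12504_c0 had 42.1, 87.0 and 25.1 RPKM in hypoxia pools a, b and c and 20.2, 21.0 and 17.4 RPKM in control pools a, b and c. A further component with the annotation apolipoprotein A-I but no name, comp7908_c1, lay the other way, at 6.24, 9.88 and 25.5 CPM in hypoxia pools a, b and c and 8.93, 10.8 and 29.7 CPM in control pools a, b and c. Within each group comp12504_c0 was lowest in the c library and comp7908_c1 was highest there. Components of 1 name or annotation thus did not all lie the same way in the c pools.

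For Slc16a6, the other component (comp19304_c0) had 11.7, 12.2 and 13.6 RPKM in hypoxia pools a, b and c and 14.7, 13.7 and 16.5 RPKM in control pools a, b and c. The member took 76.1%, 74.9% and 45.6% of the name's CPM in hypoxia pools a, b and c and 71.2%, 72.8% and 22.9% in control pools a, b and c. Here the share of the name that the member held was lowest in the c libraries. For zfp36l2 the member held 67.0%, 56.3% and 38.2% of the name's CPM in hypoxia pools a, b and c and 63.1%, 61.8% and 38.6% in control pools a, b and c.

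The receptor AHR had its main component elsewhere. The component comp19129_c0 had 24.3, 21.7 and 12.3 RPKM in hypoxia pools a, b and c and 43.1, 41.0 and 15.4 RPKM in control pools a, b and c, again lowest in the c libraries. The remaining AHR component, comp19497_c2, had 7.77, 9.27 and 7.95 RPKM in hypoxia pools a, b and c and 8.46, 8.79 and 5.02 RPKM in control pools a, b and c, so that hypoxia c lay inside the range of the others. Whether the components are copies, alleles or pieces of 1 gene cannot be told from the table. In the RefSeq annotation of HZAU_Pvac_v1, 11 of the 22 symbols matched exactly, 4 matched only with the a or b of a gene copy, and 7 had no match. The 7 were PSBR, TAR1-A, AHR, Dmbt1, apoa1, ART3 and COL3A1.

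**Figure D4:**
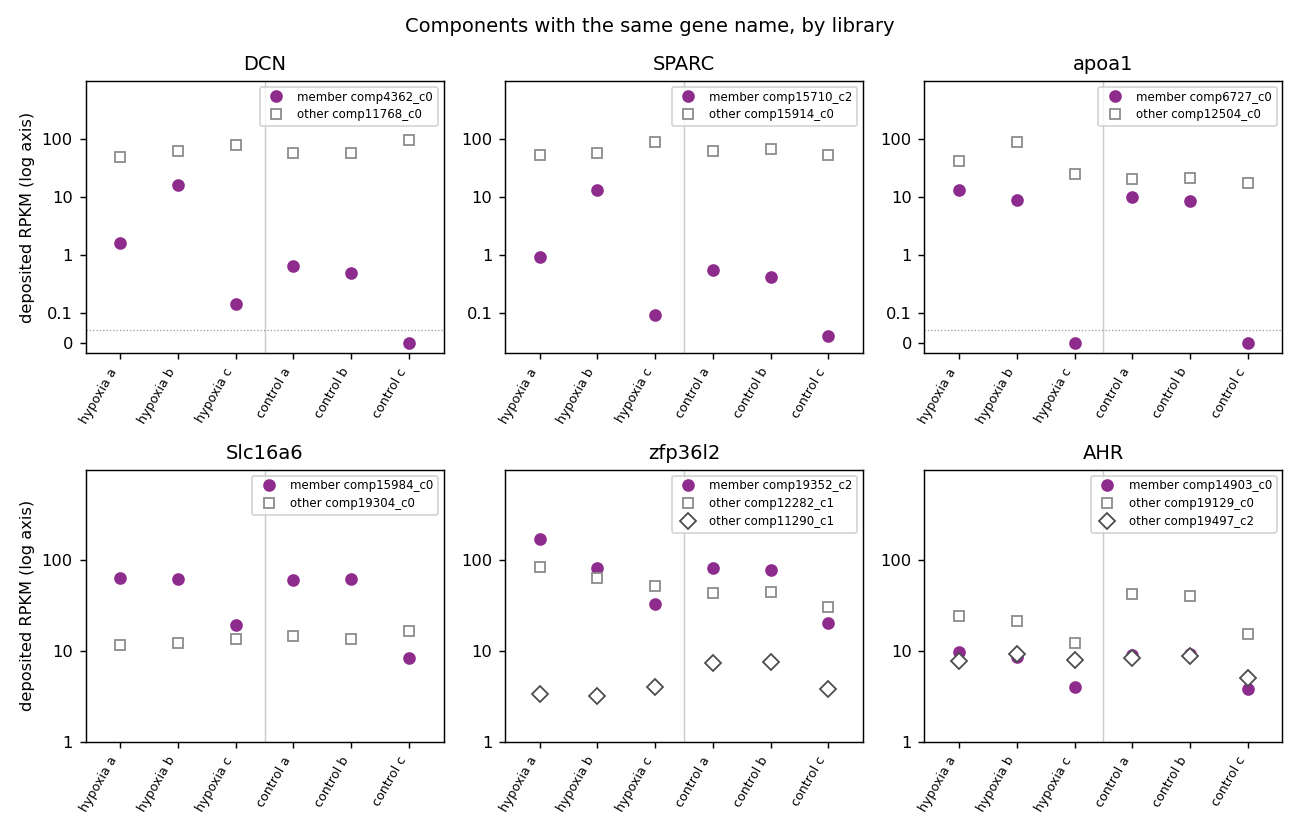
Authors' RPKM (log axis, 0 drawn under the dotted line) of the member and of the other components with the same name and a mean of at least 3 CPM, in the 6 libraries. Decorin comp11768_c0 is at 78.6 RPKM in hypoxia c and 96.3 RPKM in control c, where the member is at 0.14 and 0 RPKM.

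Against low oxygen the lower genes showed no call. The test compared the 3 hypoxia with the 3 control pools in edgeR over 25415 genes, with the letter left out. Its p-values set the difference between the groups against the spread between pools. Of the 21 lower genes 0 rose and 0 fell at an adjusted p under 0.05, while 6.36% of all genes passed, 4.56% upward and 1.80% downward. The rule took genes whose c library lay far below a and b within each group, which widens the spread the test divides by, so nothing about hypoxia is read from this count. The median standard error (SE) was 0.61 in the lower set and 0.30 over all genes. With the letter as a replicate block it was 0.23 in the lower set and 0.27 over all genes. At an unadjusted p under 0.05 the 4 genes COL1A2, COL3A1, SPARC and DCN were higher in hypoxia, all of them admitted to the set through hypoxia b. Over all 25415 genes, 3115 were higher and 2431 lower at that level. DESeq2 also called 0, beside 9.66% of all genes, 6.53% upward and 3.14% downward. Its unadjusted p was under 0.05 in 1 lower gene, SPARC, also admitted through hypoxia b, beside 2982 higher and 2176 lower of all 25415 genes. The log2 fold change of hypoxia over control was above 0 in 16 genes and below 0 in 5, with a median of 0.44 beside -0.00 over all genes. The 16 include COL1A2, COL3A1, SPARC, DCN and Tes, which met the 5 CPM level of the rule through hypoxia b alone. Their direction follows from the library that admitted them, so nothing about hypoxia is read from the split or the median. This split turned with single pools: it was 9 above and 12 below (median -0.13) without hypoxia a and 10 above and 11 below (median -0.14) without control c. All 21 were above 0 without hypoxia c (median 0.85), without control a (median 0.72) and without control b (median 0.61), and the median was 0.09 without hypoxia b. The rule placed each c library below a and b of its group, so leaving out a c pool raises the mean of that group by design. Leaving out an a or b pool gives the low c pool more weight. Nothing about hypoxia is therefore read from these splits or medians.

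DCN had the smallest adjusted p of the members, with a log2 fold change of 3.96 (SE 1.41) and an adjusted p of 0.140 in edgeR. COL1A2 had 3.72 (SE 1.49) and an adjusted p of 0.187 in the same edgeR fit. COL1A2, COL3A1, SPARC, DCN and Tes met the 5 CPM level of the rule through hypoxia b alone, so their hypoxia values reuse the library that admitted them and are given as a description. Without hypoxia b the edgeR log2 fold change was 0.72 for COL1A2, 0.81 for COL3A1, 0.55 for SPARC, 1.18 for DCN and 0.09 for Tes, with adjusted p from 0.663 to 0.981. USP2 had 0.93 (SE 0.55, edgeR adjusted p 0.367), cluh 0.59 (SE 0.46, edgeR adjusted p 0.502) and CEBPD -0.04 (SE 0.56, edgeR adjusted p 0.977).

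With the letter as a replicate block, 3 of the lower genes passed the edgeR threshold upward and 0 downward, beside 9.81% of all genes called, 6.67% upward and 3.14% downward. These were COL1A2 at a log2 fold change of 3.03 (SE 0.67, adjusted p 0.0268), COL3A1 at 3.23 (SE 0.77, adjusted p 0.0353) and DCN at 3.33 (SE 0.72, adjusted p 0.0252), all admitted through hypoxia b. Without both c libraries 7 passed upward and 0 downward, beside 14.9% of all genes called, 9.11% upward and 5.77% downward. Of the 7, COL1A2, COL3A1, SPARC, DCN and Tes are the 5 admitted through hypoxia b, and the others were cluh and USP2, with cluh at 0.69 (edgeR adjusted p 0.0159) and USP2 at 1.08 (edgeR adjusted p 0.0107). Without hypoxia c alone, COL1A2, COL3A1, SPARC and DCN passed upward, beside 1337 upward and 518 downward of all 26398 genes tested. In the authors' deposited table the p-values of the 22 genes ran from 0.730 to 1.

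**Figure D5:**
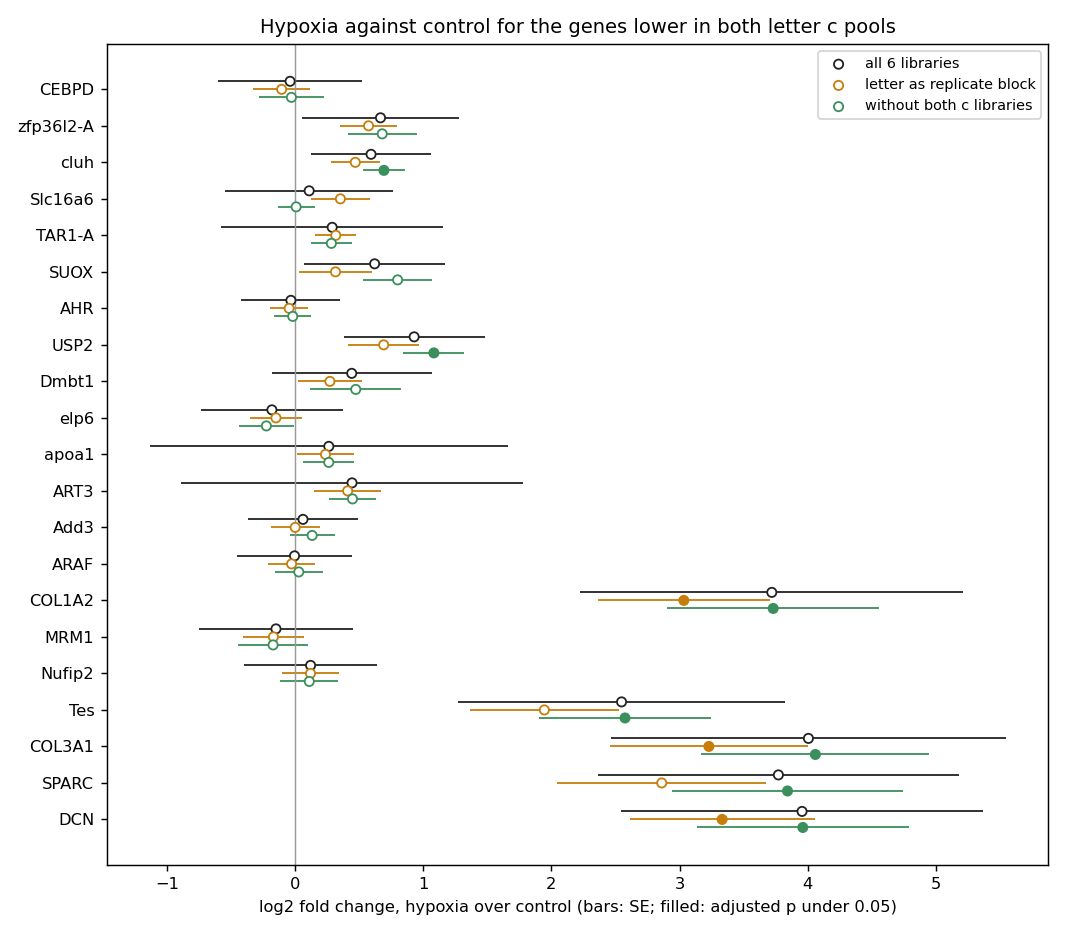
Log2 fold change of hypoxia over control with its SE for the 21 lower genes, from edgeR with all 6 libraries, with the letter as replicate block, and without both c libraries. Filled points, at an adjusted p under 0.05, appear for 0, 3 and 7 genes in these 3 fits.

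The wider gene groups of the members were read the same way, each name by its most abundant component and only at 5 CPM or more. By any margin, both c libraries lay below the other 4 in 22.8% of named genes and above them in 6.37%. Of 19 acute phase and complement genes, the group of CEBPD, 2 lay below, CEBPD and C7, and 11 lay above, among them the fibrinogen chains FGA, FGB and Fgg and the complement proteins c3, c9 and CFB. The summed level of the group was 61798, 67086 and 79222 CPM in hypoxia pools a, b and c and 58925, 60868 and 91851 CPM in control pools a, b and c. The c libraries thus had the most RNA of acute phase and complement genes in their own group while CEBPD itself was lowest there. Under hypoxia 0 of 20 tested genes of this group rose and 0 fell in edgeR, with 0 at an unadjusted p under 0.05 and 0 called by DESeq2.

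Of 20 xenobiotic and bile acid genes, the group of AHR, 7 lay below in both c libraries and 0 above. They include cyp2k1, a cytochrome P450, at 1281, 1199 and 613 CPM in hypoxia pools a, b and c and 1967, 1805 and 561 CPM in control pools a, b and c, just outside the 2-fold limit. The group summed to 4416, 4552 and 2987 CPM in hypoxia pools a, b and c and 6052, 6024 and 3906 CPM in control pools a, b and c. Between hypoxia and control 0 of 22 tested genes rose and 1 fell, the glucuronosyltransferase Ugt2a2, by 1.69 on the log2 scale (edgeR adjusted p 0.00207). At an unadjusted p under 0.05 the edgeR fit had 1 of the 22 higher and 9 lower, with a median log2 fold change of -0.47 in the group. Over all 25415 genes, 3115 were higher and 2431 lower at that level. In this group DESeq2 called 0 upward and 4 downward, cyp1a1, Cyp27a1, Ugt2a2 and Fmo5.

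Of 18 endothelial, stellate and bile duct markers, 2 lay below and 3 above. Those below were the member components of COL1A2 and COL3A1, which the rule had placed there. Those above were DCN, Anxa4 and TAGLN. The list as a whole summed to 2703, 2837 and 3210 CPM in hypoxia pools a, b and c and 2952, 3180 and 2587 CPM in control pools a, b and c, with 0 of 21 rising and 0 falling under hypoxia in edgeR. At an unadjusted p under 0.05 the edgeR fit had 6 of them higher and 2 lower, and DESeq2 called 1 upward, des, and 0 downward. The 6 include COL1A2 and COL3A1, both admitted through hypoxia b, so nothing about hypoxia is read from this count. Over all 25415 genes the edgeR fit had 3115 higher and 2431 lower at that level. Of 20 hepatocyte markers 4 lay below and 6 above, and FGA, FGB, Fgg and c3 among those above stand on the acute phase list too. Under hypoxia 0 of 20 rose and 0 fell in edgeR, with 1 higher and 1 lower at an unadjusted p under 0.05, and DESeq2 called 1 upward, the apoa1 component comp12504_c0, and 0 downward. Markers of exocrine pancreas, a tissue that lies beside or within the liver of many bony fishes, differed by letter too, and of 12 tested 0 rose and 0 fell in edgeR, with 0 at an unadjusted p under 0.05 and 0 called by DESeq2. They summed to 8218, 2580 and 2148 CPM in hypoxia pools a, b and c and 5771, 1708 and 225 CPM in control pools a, b and c, lowest in the c library of each group, and 2 of 12, CTRL and CTRC, were below in both c libraries. Not every marker followed the sums. The marker clps had 262, 71.3 and 92.7 CPM in hypoxia pools a, b and c. In control pools a, b and c it had 133, 37.1 and 134 CPM, so it held most of the control c sum. Cela3b and SPINK1 were also higher in hypoxia c than in hypoxia b. The part of this tissue in the members' levels was not tested.

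Close to the threshold, the lower genes nearest inside were SUOX, cluh and Dmbt1, with folds of 2.02, 2.04 and 2.04 between the lowest of the other 4 libraries and the higher c library. Just outside lay cyp2k1 at 1.96, mhcA at 1.94 and KDM4A at 1.94. On the higher side PSBR was alone inside, and the closest genes outside were A2m at 1.90, Slc25a1 at 1.87 and PDIA3 at 1.80.

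The small RNA libraries, which carry the same P4 and P0 labels and letters, were put through the same rule. The rule was applied once per different row of values (471 of 613 entries, with 4510770 to 7049919 counts per library). It kept 3 sequences as higher, 1.63% of 184 with the required level, and 0 as lower, 0% of 190. The sequences are shown because 2 of them share a seed with a more abundant miRNA, and capitals mark the seed, bases 2 to 8.
aca-miR-19a-3p_R+1: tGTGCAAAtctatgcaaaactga
dre-miR-19b-3p_R-1: tGTGCAAAtccatgcaaaactg
oha-miR-191-5p_R-1: cAACGGAAtcccaaaagcagct
dre-miR-462_R+1: tAACGGAAcccataatgcagctg
mdo-miR-21-5p_L+1_1ss17AG: aTAGCTTAtcagactggtgttga
The first, aca-miR-19a-3p_R+1, had 38.7, 36.2 and 326 CPM in hypoxia pools a, b and c and 147, 113 and 789.6 CPM in control pools a, b and c. Its seed partner dre-miR-19b-3p_R-1, not kept by the rule, had 290.1, 337 and 1514 CPM in hypoxia pools a, b and c and 1093, 826 and 3028 CPM in control pools a, b and c. Both miR-19 sequences were highest in the c library of each group.

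The sequence oha-miR-191-5p_R-1 had 0.932, 0.760 and 5.79 CPM in hypoxia pools a, b and c and 1.44, 1.06 and 5.15 CPM in control pools a, b and c. Its seed partner dre-miR-462_R+1 had 1410.2, 1984 and 2289 CPM in hypoxia pools a, b and c and 1733, 2019.6 and 2202 CPM in control pools a, b and c. Sharing the seed, they did not share the size of the gap, which was a ratio of 3.57 for oha-miR-191-5p_R-1 and 1.09 for dre-miR-462_R+1. The sequence mdo-miR-21-5p_L+1_1ss17AG had 5.16, 6.24 and 19.5 CPM in hypoxia pools a, b and c and 8.98, 7.52 and 19.4 CPM in control pools a, b and c. It is a rare variant of miR-21. The far more abundant fru-miR-21 had 22731, 28589 and 35759 CPM in hypoxia pools a, b and c and 34743, 33635 and 33681 CPM in control pools a, b and c. Its ratio was 0.97, so it was not kept by the rule.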

How the data were processed

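Per the labels' protocols the authors trimmed the mRNA reads and assembled them with Trinity, and the submitters' processing notes name RSEM 1.2.3, DESeq and, for small RNA, Bowtie. The deposited mRNA values are estimated counts (expected counts, with fractions). The small RNA values are labelled raw and also hold fractions. Neither is scaled, and strand use in counting is not given in the sources used here. The deposited table also holds the authors' RPKM, their hypoxia p-value and, in bases, a length and an effective length (other unit) per component.

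CPM divide a count by its column total. Counts rounded to whole numbers were tested in edgeR 4.0.16 (quasi-likelihood, TMM, filterByExpr, two-sided, Benjamini-Hochberg over all genes, R 4.3.3), hypoxia against control, with DESeq2 1.42.0 and other settings as alternatives. Tables and plots used Python 3.11.15, pandas 2.3.3 and matplotlib 3.10.9. The SE is the log2 fold change over the square root of F. Every member is named with its values in each library. The members and gene lists were chosen with earlier results of these data known. Deviations of log2(CPM + 1) from group means correlated between same-lettered pools by 0.228, 0.231 and 0.340 for a, b and c over 25415 genes. Deviations from a mean of 3 pools are tied to each other, so the values for a and b may follow from c alone. The letters may pair the samples, but these values do not show it for a and b, and no label says so. The main fit therefore left the letter out, and blocked values are given where they change a call. Genes are not independent replicates. Only the main edgeR fit was tested on simulated data, which held no letter effect.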

Additional observations from a re-analysis of the deposited data

How the results depend on the processing

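The rule kept 22 genes. It kept 122 at a fold of 1.5, 10 at a fold of 3, 81 at a mean of 1 CPM and 11 at a mean of 10 CPM, and 25 to 229 with 1 library left out, the most without hypoxia c (229) and without control c (79). Without hypoxia b it kept 37 and lost DCN, COL3A1, COL1A2, SPARC and Tes. Without hypoxia c it lost PSBR. The higher set of 1 became 13 at a fold of 1.5, 27 at a mean of 1 CPM, 0 at a mean of 10 CPM, 3 with the fold on RPKM (chosen after seeing the data, as was leaving libraries out of the rule) and 1 to 54 with 1 library left out. The lower set of 21 became 109, 9, 54 and 11 under the first 4 settings and 24 to 175 with 1 library left out. With TMM-scaled CPM the rule kept 23 genes and lost SUOX.

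In the hypoxia comparison the 1617 genes called became 2456 in DESeq2, 2493 with the replicate block, 3816 without both c libraries and 383 to 1855 with 1 pool left out. The 0 calls among the lower set became 3 with the replicate block, 7 without both c libraries and 0 to 4 with 1 pool left out. The replicate block changed no other call among the members. PSBR passed the low-count filter in some of these fits only and was not called in those.

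The direction of the members' hypoxia change depended on the pools. With 1 pool left out, the log2 fold change ran from -0.71 to 0.35 for CEBPD, -0.10 to 1.07 for zfp36l2-A, -0.38 to 0.48 for Slc16a6, -0.23 to 0.78 for TAR1-A, -0.20 to 1.05 for SUOX, -0.33 to 0.26 for AHR, -0.54 to 0.85 for Dmbt1, -0.71 to 0.18 for elp6, -0.49 to 0.84 for apoa1, -0.15 to 1.02 for ART3, -0.23 to 0.41 for Add3, -0.33 to 0.33 for ARAF, -0.83 to 0.24 for MRM1 and -0.33 to 0.48 for Nufip2. ARAF was also 0.030 without both c libraries. It stayed above 0 for the others, from 0.19 to 0.97 for cluh, 0.24 to 1.36 for USP2, 0.72 to 4.28 for COL1A2, 0.81 to 4.57 for COL3A1, 0.55 to 4.33 for SPARC, 1.18 to 4.51 for DCN and 0.09 to 3.10 for Tes, and the last 5 were lowest without hypoxia b. Because the rule placed each c library below a and b of its group, leaving out a pool shifts these values in part by design. Nothing about hypoxia is read from these ranges, and any further cause was not tested. With 3 pools per group and a median SE of 0.61 in the fit without the letter, changes near its median of 0.44 were not detectable.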

Other observations

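The same rule kept 15 higher and 10 lower components among the 19693 without a name, chosen for naming here after their values were seen. Of the higher ones, 3 had no count in the other 4 libraries. The component comp7961_c0 had 118 CPM in hypoxia c and 114 CPM in control c, comp7831_c0 had 110.0 CPM in hypoxia c and 115 CPM in control c, and comp20993_c0 had 33.3 CPM in hypoxia c and 33.6 CPM in control c. Unlike PSBR, these were level between the 2 c libraries. Of the lower ones, 1 had no count in either c library, comp7513_c0, with 18.2, 13.4 and 0 CPM in hypoxia pools a, b and c and 15.2, 11.4 and 0 CPM in control pools a, b and c. The components comp10266_c1 and comp89785_c0 were, like the COL1A2 and COL3A1 members, highest in hypoxia b, at 27.9 and 22.0 CPM there. None of the components named here carries an annotation.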
